A study of Homo sapiens with 18 samples.

Results

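The heat shock genes and the chaperone genes of the endoplasmic reticulum (ER) are the 34 genes described here. They were taken by name from a list of 17 cytosolic and mitochondrial heat shock genes and 17 genes of ER folding and quality control. All 34 were listed in both deposited tables, which hold 14308 genes for MDA-MB-231 and 14768 for T47D, with 12666 genes in both. MDA-MB-231 and T47D are cell lines from human breast cancers, and per the labels the first lacks the estrogen receptor and the second has it. RNA was sequenced from both. The labels give G0S2 overexpression for 3 days (day 3) or 15 days (day 15) with doxycycline, for which the protocol names 0.5 ug/ml, and a control group of each line, titled 0 for doxycycline. Each of the 6 groups had 3 libraries, 18 in all. A group with doxycycline but no added G0S2 gene was not analysed here. No uninduced group is labelled day 3 or day 15. What G0S2, doxycycline, the vector or time in culture did cannot be told apart. The labels name neither the vector nor whether a line is 1 clone, nor do they state separate cultures for the 3 libraries of a group. The p-values therefore rest on the spread among these libraries alone, and it may be technical.

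Heat shock genes encode chaperones that hold, fold and refold proteins. In the cytosol the Hsp70 proteins bind unfolded stretches, J-domain proteins bring them clients, exchange factors reset them, and Hsp90 finishes a subset of clients. The transcription factor HSF1 raises these genes when unfolded proteins build up. The ER has its own Hsp70 (HSPA5, also called BiP), its own Hsp90 (HSP90B1), lectin chaperones for glycoproteins, enzymes that form disulfide bonds, and a route that sends failed proteins out for degradation. These genes are raised by the unfolded protein response through ATF6, XBP1 and ATF4. The product of G0S2 is known for blocking the lipase ATGL on lipid droplets.

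Promoters of 5 members are shown because calls of these 5 members are described below. In all of them but DNAJB9, motifs of the cytosolic or of the ER stress response can be read. The motifs were searched as exact letters on both strands in the 250 bases before each RefSeq start. The first is the heat shock element, GAA, TTC and GAA with any 2 bases between neighbours, which HSF1 trimers bind. The second is the ER stress response element, CCAAT and CCACG with any 9 bases between them. The third is the related element II, ATTGG and CCACG with any 1 base between them, and the fourth is the core TGACGTG, bound by XBP1 and ATF6. The sequences are from RefSeq, build GRCh38.p14, written 5′ to 3′ on the strand of the gene, with the fixed letters of a motif, or of its reverse complement, in capitals. HSP90AA1 (minus strand) is at chr14:102087045-102087294, HSPA8 (minus strand) at chr11:123062137-123062386, HSPA5 (minus strand) at chr9:125241344-125241593, HERPUD1 (plus strand) at chr16:56931892-56932141 and DNAJB9 (plus strand) at chr7:108569624-108569873.
HSP90AA1: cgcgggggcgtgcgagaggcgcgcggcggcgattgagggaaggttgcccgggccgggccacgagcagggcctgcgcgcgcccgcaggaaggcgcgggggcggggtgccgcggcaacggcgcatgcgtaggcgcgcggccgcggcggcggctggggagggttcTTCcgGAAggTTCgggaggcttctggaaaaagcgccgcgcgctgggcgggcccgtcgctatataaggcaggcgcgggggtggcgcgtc
HSPA8: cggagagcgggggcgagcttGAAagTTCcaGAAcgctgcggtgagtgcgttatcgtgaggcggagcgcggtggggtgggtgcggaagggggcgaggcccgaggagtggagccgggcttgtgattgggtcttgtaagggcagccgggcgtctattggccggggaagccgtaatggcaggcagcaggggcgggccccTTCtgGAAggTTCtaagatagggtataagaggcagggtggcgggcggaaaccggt
HSPA5: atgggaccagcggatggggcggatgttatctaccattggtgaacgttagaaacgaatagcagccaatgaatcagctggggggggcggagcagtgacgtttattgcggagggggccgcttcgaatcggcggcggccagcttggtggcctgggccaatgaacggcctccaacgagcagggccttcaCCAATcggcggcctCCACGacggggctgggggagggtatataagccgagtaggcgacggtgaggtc
HERPUD1: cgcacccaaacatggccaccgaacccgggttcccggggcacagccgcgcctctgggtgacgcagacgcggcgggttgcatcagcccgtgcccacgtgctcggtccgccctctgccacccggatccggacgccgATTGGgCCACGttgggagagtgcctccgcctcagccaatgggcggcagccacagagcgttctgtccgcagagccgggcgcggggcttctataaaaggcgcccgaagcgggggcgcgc
DNAJB9: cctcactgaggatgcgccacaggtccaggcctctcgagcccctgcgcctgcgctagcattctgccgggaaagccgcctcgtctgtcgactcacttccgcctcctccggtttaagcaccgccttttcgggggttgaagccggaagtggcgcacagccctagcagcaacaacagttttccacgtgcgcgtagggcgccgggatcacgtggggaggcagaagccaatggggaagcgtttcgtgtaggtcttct

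In HSP90AA1 the capitals mark 1 heat shock element, 88 to 76 bases before the start, and in HSPA8 they mark 2, at 230 to 218 and at 55 to 43 bases before it. In HSPA5 they mark an ER stress response element 66 to 48 bases before the start, and in HERPUD1 the related element at 117 to 107 bases. DNAJB9 has none of these letters in this window. Promoter windows were matched for 32 of the 34 members, 16 of each kind, and HSF1 and PDIA3 had none. The heat shock element was found in 4 of the heat shock members (HSP90AA1, HSP90AB1, HSPA8 and HSPD1) and in 0 ER members, against 0.441% of the 34943 RefSeq windows. The ER stress response element was found in 6 ER members (CALR, CANX, CRELD2, HSP90B1, HSPA5 and PDIA6) and in 0 heat shock members, against 0.0744% of windows. The related element was found in HERPUD1, HYOU1 and SDF2L1, against 0.0515% of windows. The core TGACGTG was found in HSP90AB1 and HYOU1, against 1.69% of windows. Its letters can overlap the end of either ER element. A member was counted if any of its start windows matched, while the shares are per window, so they are not on one scale. A match describes the letters and not a bound site.

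Library totals were about 37012500 to 52380800 reads in MDA-MB-231 and 40123500 to 50973100 in T47D, recovered from the deposited values, and levels are given as CPM, read counts scaled to the size of the library. G0S2 itself was at 25.6, 25.1 and 25.2 CPM in MDA-MB-231 controls, 1484, 1506 and 1429.5 CPM at day 3 and 1209, 1294 and 1103 CPM at day 15. In T47D it was at 0.966, 0.343 and 0.442 CPM in controls, 883, 855 and 844 CPM at day 3 and 766, 993 and 736 CPM at day 15, so every library fitted its label as induced or control. In T47D the level did not tell day 15 from day 3 (log2 fold -0.062, limma adjusted p = 0.962). The estrogen receptor gene ESR1, PGR, FOXA1 and TFF1 were not listed in the MDA-MB-231 table, and VIM, CAV1, AXL, ZEB1 and MSN were not listed in the T47D table. Of 10 T47D marker genes MDA-MB-231 listed 6, at 908 to 969 CPM summed in controls. Of 9 MDA-MB-231 marker genes T47D listed 4, at 63.0 to 65.5 CPM. At day 15 in T47D limma called 2 higher and 4 lower of the 10 and 0 and 3 of the 4, against 11.2% of all genes. Without day 15 replicate 2 these were 2 and 6, and 0 and 3, against 25.1%. At day 15 in MDA-MB-231 limma called 4 higher and 0 lower of the 9 and 0 and 3 of the 6, against 8.2%. Of 8 fibroblast markers T47D listed 2, whose summed level was 24.9 to 27.4 CPM at day 15 and 34.7 to 40.2 CPM in controls. Of 8 leukocyte markers MDA-MB-231 listed 4, at 82.5 to 84.5 CPM at day 15 and 92.6 to 97.1 CPM in controls. CD74 alone made up most of this leukocyte sum, at 79.5 ± 1.02 CPM at day 15 and 89.6 ± 2.44 CPM in controls. Of the same leukocyte markers T47D listed 3, whose summed CPM was 7.26 to 8.47 in controls, 10.1 to 10.6 at day 3 and 8.74 to 9.59 at day 15. CD74 made up most of the T47D sum at day 3 (9.16 ± 0.226 CPM against 6.88 ± 0.530 CPM in controls) and was called higher there (limma adjusted p = 0.0109). Calls in that list numbered 0 to 1 in single omissions. Over control at day 15, COL3A1 was called lower in T47D (log2 fold -1.08, limma adjusted p = 2.37e-07). In MDA-MB-231 PDGFRB (log2 fold -0.52, limma adjusted p = 0.00213) and CD74 (log2 fold -0.17, limma adjusted p = 0.00106) were called lower. These lists kept 1 lower call each in all single omissions. The 1 of 7 endothelial markers listed in T47D had a CPM of 0.583 to 1.07 in controls, 1.00 to 1.35 at day 3 and 1.14 to 2.06 at day 15. MDA-MB-231 listed 3 endothelial markers, at 14.9 to 15.0 CPM at day 15 and 15.5 to 17.4 CPM in controls, and 4 fibroblast markers, at 13.8 to 14.4 CPM at day 15 and 15.9 to 17.0 CPM in controls. PTPRC was not listed in T47D, nor CD3E in either line, and the part of such genes in the results was not tested. The library T47D day 15 replicate 2 stood apart: its deviations from the group mean had an SD of 0.133 on the log2 scale over 12052 genes, against 0.0587 to 0.104 in the other T47D libraries. For T47D at day 15, calls, counts and the folds of members that it moved are therefore also given without it. In bulk RNA, fewer cells of a kind and less RNA per cell cannot be told apart.

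**Figure D1:**
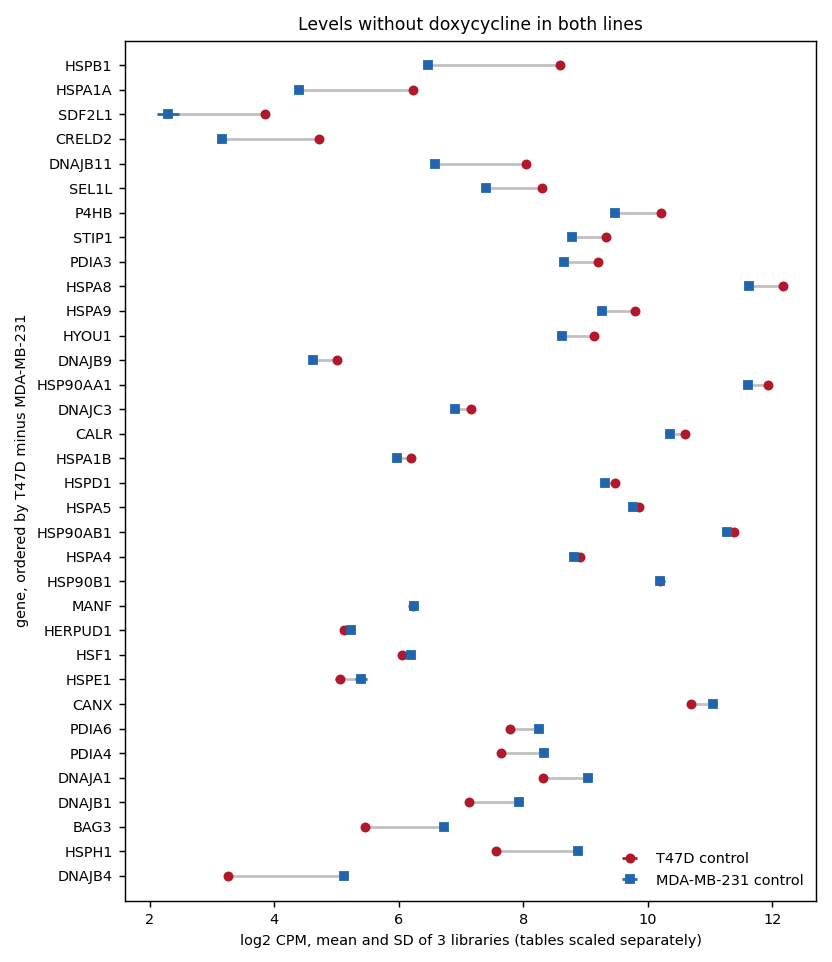
Level of each of the 34 genes without doxycycline, as log2 CPM on the horizontal axis, with red circles for T47D controls and blue squares for MDA-MB-231 controls (mean and SD, n = 3 each). HSPB1, HSPA1A, SDF2L1, CRELD2 and DNAJB11 lie more than 2-fold higher in T47D, while DNAJB4, HSPH1 and BAG3 lie more than 2-fold lower.

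Before induction the chaperone genes spanned a wide range of levels. Per kilobase of exon in T47D controls, HSPA8, the constitutive cytosolic Hsp70, led with 951 ± 21.3 CPM per kilobase (SD, n = 3). It was followed by the cytosolic Hsp90 genes HSP90AB1 (892 ± 4.72) and HSP90AA1 (745 ± 15.9), and by the ER lectin chaperones CALR (571 ± 11.7) and CANX (264 ± 6.27), all in CPM per kilobase. In MDA-MB-231 controls the same 5 genes were the highest, with HSP90AB1 at 832 ± 1.48, HSPA8 at 652 ± 6.83, HSP90AA1 at 598 ± 11.5, CALR at 482 ± 4.51 and CANX at 339 ± 8.56 CPM per kilobase. HSPA5 was seventh in both lines, at 239 ± 2.69 CPM per kilobase in T47D and 221 ± 1.37 in MDA-MB-231. The lowest per kilobase were DNAJB4 in T47D (2.53 ± 0.0250) and CRELD2 in MDA-MB-231 (1.73 ± 0.0737). The length was the union of all annotated exons of a gene, 5165 bases for CRELD2, and can exceed that of its main transcript. Ranks depend on this choice, and other lengths were not tried. Along this order, 5 of 33 neighbouring pairs in T47D and 6 of 33 in MDA-MB-231 had libraries that overlapped, while the libraries of the other pairs did not overlap.

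The lines differed in which chaperones were abundant. HSPB1, a small heat shock protein (Hsp27), was at 387 ± 9.90 CPM in T47D controls and 88.8 ± 2.60 CPM in MDA-MB-231 controls (SD, n = 3 each). HSPA1A, a stress-inducible Hsp70, was at 75.2 ± 0.269 CPM in T47D controls and 21.1 ± 0.700 CPM in MDA-MB-231 controls. DNAJB11, a J-domain partner of BiP in the ER, was at 263 ± 5.11 CPM in T47D controls and 95.5 ± 1.97 CPM in MDA-MB-231 controls. These 3 genes were higher in all T47D controls than in any MDA-MB-231 control, as were SDF2L1, an ER protein that acts with DNAJB11, and CRELD2, a secreted product of ER stress. The other way round, HSPH1, an Hsp110 exchange factor, was at 188 ± 2.62 CPM in T47D controls and 469 ± 11.8 CPM in MDA-MB-231 controls. BAG3, which links Hsp70 to selective autophagy, was at 44.1 ± 0.975 CPM in T47D controls and 106 ± 0.610 CPM in MDA-MB-231 controls, and DNAJB4, a cytosolic J-domain protein, was at 9.57 ± 0.0946 CPM in T47D controls and 34.7 ± 1.55 CPM in MDA-MB-231 controls. Control libraries did not overlap for 32 of the 34 genes, of which 21 were higher in T47D and 11 in MDA-MB-231, and they overlapped for HSP90B1 and MANF. The median difference over the 34 was 0.20 on the log2 scale, T47D minus MDA-MB-231. The 2 tables were scaled separately, so these differences are levels side by side and were not tested.

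HSPA1A and HSPA1B need care, since their coding sequences share 1922 of 1926 bases (99.8%) and reads can be split between the copies. In T47D, HSPA1A had 0.959 to 1.05 times as many reads as HSPA1B across the 9 libraries, and in MDA-MB-231 it had 0.282 to 0.349 times as many. Their separate levels are therefore uncertain. Separately, 16 members overlap another RefSeq gene, among them HSPE1, the mitochondrial co-chaperonin, which lies within the readthrough gene HSPE1-MOB4, and whether counting used strand is not given in the sources used here.

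These genes differed little between induced and control cells in either line. In the fits of all 9 libraries of a line no log2 fold of a member was beyond 0.26 in size, and 95% intervals reached from -0.50 to 0.33, so each of these intervals excluded a change of 1.5-fold in either direction. With 1 library left out the largest was that of HSPE1, -0.38 at day 15 against control in T47D without day 15 replicate 2. The absolute log2 fold of the 34 had a median of 0.044 at day 3 and 0.040 at day 15 in MDA-MB-231, where the median over all genes was 0.052 and 0.068. In T47D the members' median was 0.039 at day 3 and 0.055 at day 15, against 0.055 and 0.084 over all genes. Over genes with a mean log2 CPM of 1 or more, as all members had, the medians were 0.043 and 0.059 in MDA-MB-231 and 0.046 and 0.071 in T47D, so at day 3 in MDA-MB-231 the members were not below them. The comparisons with control share their control libraries within a line, so they are not independent.

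**Figure D2:**
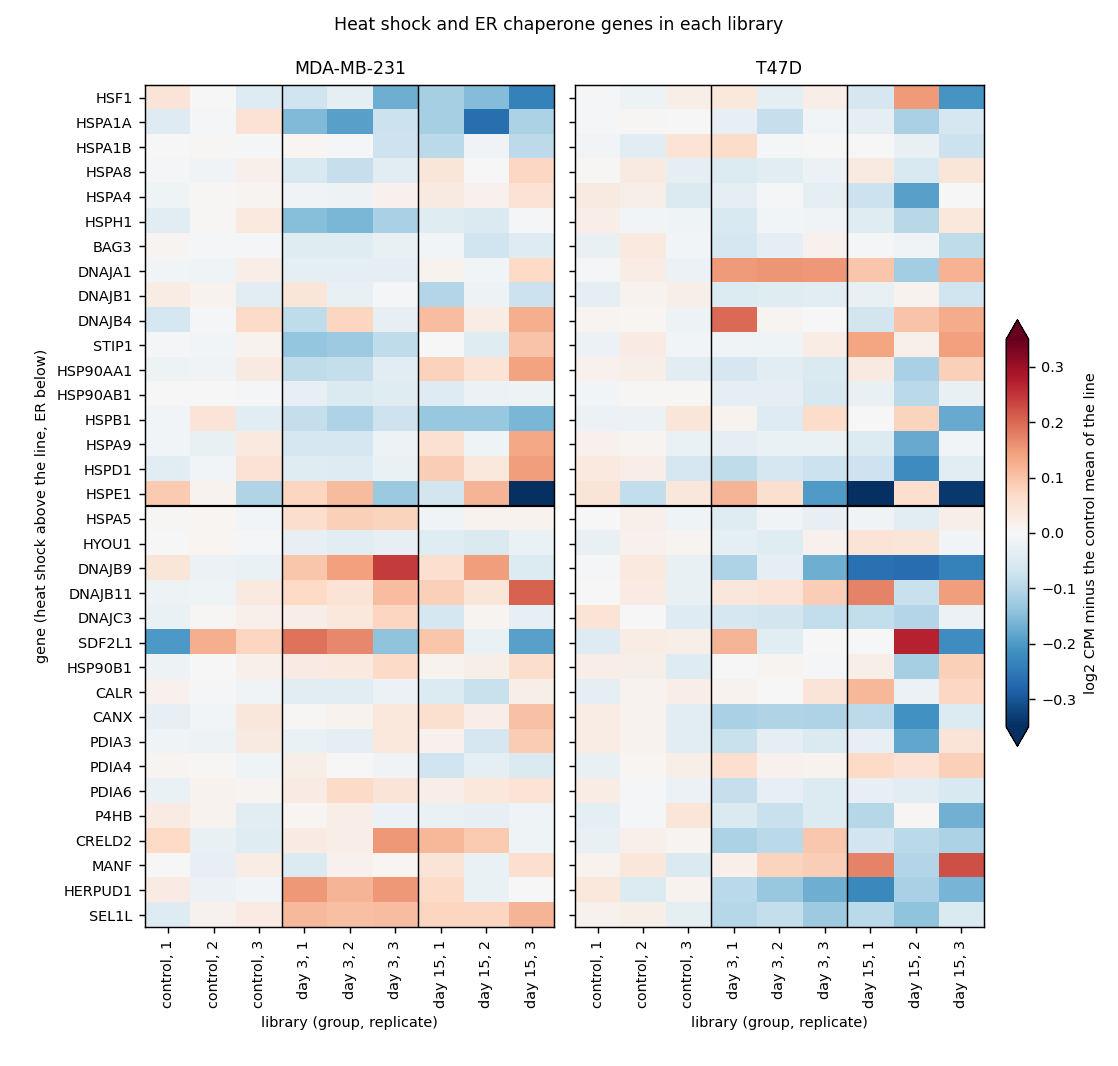
Log2 CPM of each gene in each of the 18 libraries minus the mean of the 3 controls of that line, with heat shock genes above the horizontal line and ER genes below it; the colour scale ends at 0.35 in both directions. In MDA-MB-231, HSPH1 and STIP1 are low and HERPUD1 and SEL1L are high in the day 3 libraries, while in T47D, DNAJB9 is low in the day 15 libraries and day 15 replicate 2 differs from its 2 neighbours for many genes.

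In MDA-MB-231 at day 3, HSPH1 and STIP1 of the cytosolic Hsp70 and Hsp90 machinery fell, and HSPA5 and SEL1L of the ER rose, all by under 0.15 on the log2 scale. Of the 17 heat shock members 0 rose, 2 fell (HSPH1 and STIP1) and 15 were not called, and of the 17 ER members 2 rose (HSPA5 and SEL1L), 0 fell and 15 were not called. That is 4 of 34 members, against 1.77% of all 14308 genes called (0.895% higher and 0.874% lower). The median log2 fold was -0.040 over the heat shock members and 0.045 over the ER members, against 0.0016 over all genes. By sign alone 15 of 17 heat shock members were below control and 13 of 17 ER members above it. In the 3 day 3 libraries the mean deviation of the heat shock members from control was -0.054, -0.051 and -0.056, and that of the ER members 0.040, 0.045 and 0.052, all on the log2 scale.

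HSPH1 was at 423, 419 and 433 CPM in day 3 libraries of MDA-MB-231, against 457, 470.0 and 480.1 CPM in controls. All day 3 values lay below all controls, and HSPH1 fell (log2 fold -0.14, SE 0.0234, limma adjusted p = 0.000508). STIP1, the adaptor that joins Hsp70 to Hsp90, was at 399, 402 and 413 CPM at day 3 and 438, 436 and 443 CPM in controls, again without overlap, and fell (log2 fold -0.12, SE 0.0274, limma adjusted p = 0.022). HSPA5, the ER Hsp70 that also holds the stress sensors inactive, was at 903, 917 and 914 CPM at day 3 and 868, 869 and 859 CPM in controls. The groups did not overlap and HSPA5 rose (log2 fold 0.074, SE 0.0191, limma adjusted p = 0.0407). SEL1L, the partner of the HRD1 ubiquitin ligase that clears misfolded ER proteins, was at 184, 183 and 183 CPM at day 3 and 165, 172 and 173 CPM in controls. Its day 3 libraries all lay above the controls, and SEL1L rose (log2 fold 0.11, SE 0.0263, limma adjusted p = 0.0271).

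Of these 4 calls, HSPH1 held when any 1 library of the 2 groups compared was left out. With libraries scaled to equal medians HSPH1 and STIP1 were called and HSPA5 and SEL1L were not, against 1.43% of all genes. HSPA5 was lost in all 6 omissions (limma adjusted p = 0.0721 to 0.227), SEL1L in all but that of control replicate 3 (0.0903 to 0.183 in the other five), and STIP1 in all but that of day 3 replicate 3 (0.0666 to 0.159 in the other five). Without limma's trend and robust moderation no member was called in any MDA-MB-231 comparison, while 0.44% of all genes were at day 3, 1.62% at day 15 and 0.224% for day 15 against day 3, and HSPH1 then had an adjusted p of 0.13.

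The ER genes of degradation and of the BiP cycle had some of the larger day 3 values in MDA-MB-231 without passing the test. HERPUD1, a membrane scaffold of ER-associated degradation, was at 41.9, 40.9 and 41.9 CPM at day 3 and 38.5, 37.2 and 37.4 CPM in controls (log2 fold 0.14, SE 0.0392, limma adjusted p = 0.0654). DNAJB9, a J-domain partner of BiP (ERdj4), was at 26.4, 27.3 and 29.3 CPM at day 3 and 25.5, 24.4 and 24.3 CPM in controls (log2 fold 0.16, SE 0.0526, limma adjusted p = 0.124). Both were above control in all libraries. HSP90B1, the ER Hsp90, had a log2 fold of 0.043 and CALR, the soluble lectin chaperone, of -0.033. On the cytosolic side, HSPA8 (-0.058), HSP90AA1 (-0.069), HSPB1 (-0.088) and HSPA1A (-0.14) were lower in all day 3 libraries without a call, and DNAJB1, the J-domain partner of the inducible Hsp70, was at 0.0050. In all, 14 members had an unadjusted p under 0.05, against 13.6% of all genes, and the groups did not overlap for 19 of 34 members, against 20.5% of all genes.

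**Figure D3:**
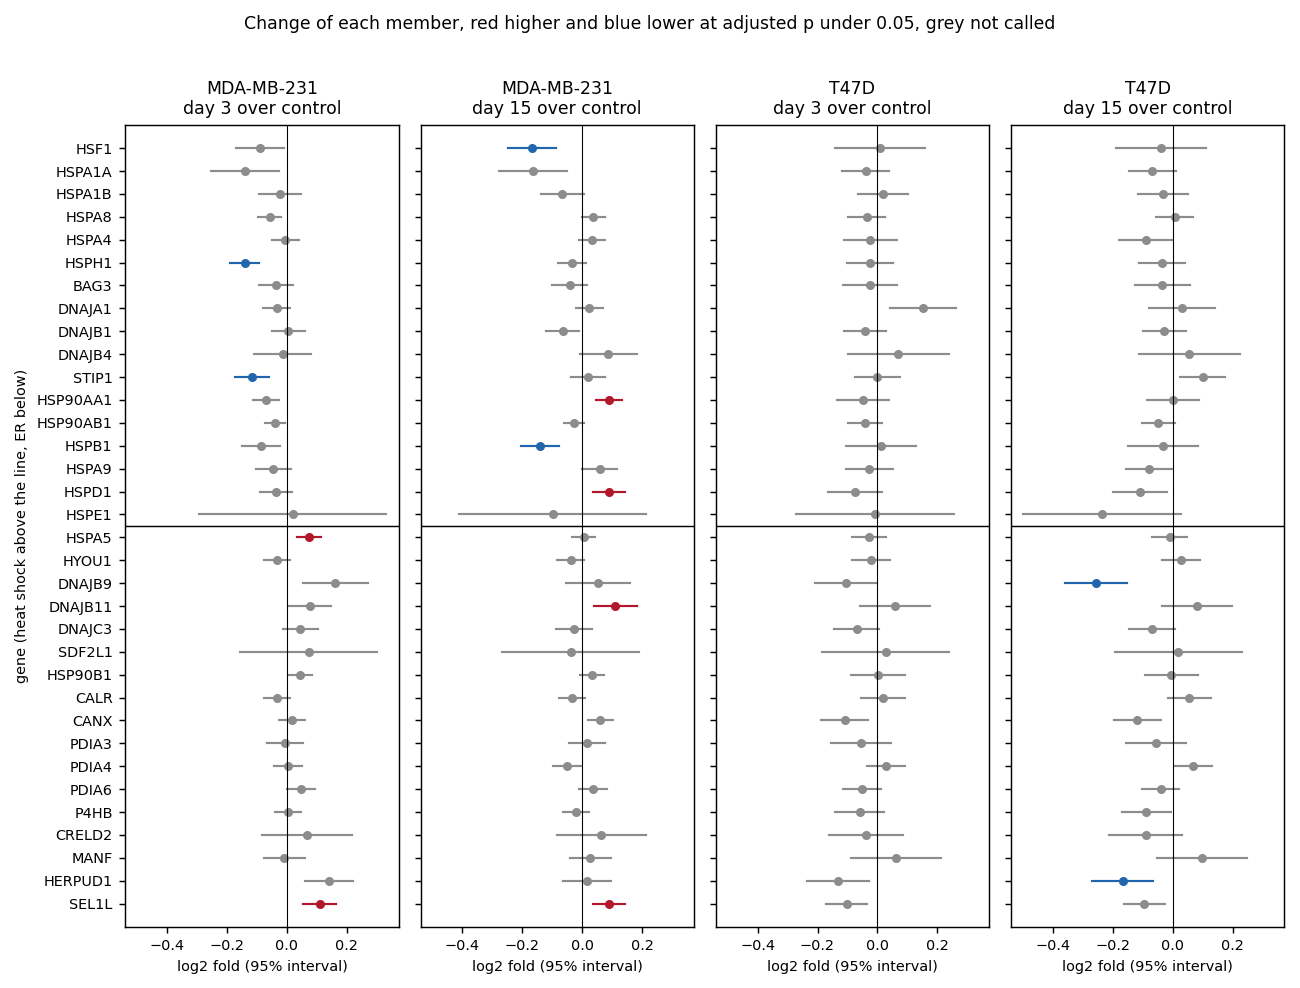
Log2 fold over control of each gene with its 95% interval (limma, n = 3 against 3), in columns for MDA-MB-231 at day 3 and day 15 and for T47D at day 3 and day 15, with calls at adjusted p under 0.05 in red (higher) or blue (lower) and the others in grey. The folds lie between -0.26 and 0.16, with 4 and 6 calls in MDA-MB-231 and 0 and 2 in T47D.

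At day 15 in MDA-MB-231, HSP90AA1, HSPD1, DNAJB11 and SEL1L stood above control, and HSF1 and HSPB1 below it. Of the heat shock members 2 rose, 2 fell and 13 were not called, and of the ER members 2 rose, 0 fell and 15 were not called, which makes 6 of 34 members, against 8.2% of all genes called (3.42% higher and 4.77% lower, or 4.6% and 3.51% with libraries scaled to equal medians). The median log2 fold was -0.028 over the heat shock members and 0.016 over the ER members, against 0.0010 over all genes. The groups did not overlap for 13 of 34 members, against 24.3% of all genes.

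HSF1, the transcription factor of the heat shock response, was at 67.5, 65.8 and 62.1 CPM at day 15 and 75.4, 73.1 and 70.9 CPM in MDA-MB-231 controls. Every day 15 library was below every control, and HSF1 fell (log2 fold -0.17, SE 0.0386, limma adjusted p = 0.00696). HSPB1 was at 81.0, 80.9 and 79.5 CPM at day 15 and 88.2, 91.6 and 86.5 CPM in controls, also without overlap, and fell (log2 fold -0.14, SE 0.0309, limma adjusted p = 0.00458). HSP90AA1, the more inducible cytosolic Hsp90, was at 3319.6, 3240.0 and 3458 CPM at day 15 and 3097, 3108 and 3206 CPM in controls. The groups were apart and HSP90AA1 rose (log2 fold 0.090, SE 0.0211, limma adjusted p = 0.00906). HSPD1, the mitochondrial chaperonin Hsp60, was at 677, 654 and 706 CPM at day 15 and 620.1, 633 and 661 CPM in controls. Its groups overlapped, since day 15 replicate 2 was below control replicate 3, and HSPD1 rose by the test (log2 fold 0.090, SE 0.0255, limma adjusted p = 0.0286).

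DNAJB11 was at 101, 98.3 and 110.0 CPM at day 15 and 94.3, 94.4 and 97.7 CPM in MDA-MB-231 controls, narrowly apart, and rose (log2 fold 0.11, SE 0.0349, limma adjusted p = 0.0475). SEL1L was at 179, 179 and 184 CPM at day 15, above all controls (165, 172 and 173 CPM), and rose (log2 fold 0.089, SE 0.0263, limma adjusted p = 0.0332). Each of the 6 calls was lost in 1 or more single omissions: without control replicate 1, HSPD1, DNAJB11, HSF1, SEL1L and HSP90AA1 (limma adjusted p = 0.0607 to 0.208); without control replicate 2, HSPD1, DNAJB11, HSPB1, SEL1L and HSP90AA1 (limma adjusted p = 0.0642 to 0.186); without day 15 replicate 1, HSPD1, DNAJB11 and SEL1L (limma adjusted p = 0.0669 to 0.0842); without day 15 replicate 3, HSPD1, DNAJB11 and SEL1L (limma adjusted p = 0.115 to 0.287). The number of members called was 3, 10 and 4 without day 15 replicates 1, 2 and 3, against 4.88%, 13.3% and 5.04% of all genes. It was 1, 1 and 8 without control replicates 1, 2 and 3, against 3.29%, 3.19% and 12.4% of all genes. DNAJB11 was at a log2 fold of 0.063 without day 15 replicate 3.

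HSPA5, called at day 3, was near control at day 15 in MDA-MB-231. HSPA5 was at 859, 873 and 872 CPM at day 15, overlapping the controls at 868, 869 and 859 CPM (log2 fold 0.0045, SE 0.0191, limma adjusted p = 0.914). HERPUD1 (0.015), DNAJB9 (0.053), HSP90B1 (0.032) and CALR (-0.035) had log2 folds over control that were not called. The inducible Hsp70 gene HSPA1A was at 19.5, 17.6 and 19.6 CPM at day 15, below its controls at 20.5, 21.1 and 21.9 CPM, and did not pass (log2 fold -0.16, SE 0.0555, limma adjusted p = 0.0649), and HSPA1B was at a log2 fold of -0.066.

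Set directly against day 3, day 15 in MDA-MB-231 had more transcript of 6 heat shock members and less of HSPA5. Of the 17 heat shock members 6 rose, 0 fell and 11 were not called, and of the 17 ER members 0 rose, 1 fell and 16 were not called. That is 7 of 34 members, against 5.33% of all genes called (2.47% higher and 2.86% lower, or 3.88% and 1.89% with equal medians). The median log2 fold was 0.038 over the heat shock members and -0.011 over the ER members, against -0.0068 over all genes. HSP90AA1 rose the most (log2 fold 0.16, SE 0.0211, limma adjusted p = 6.44e-05), with 3319.6, 3240.0 and 3458 CPM at day 15, against 2951, 2961 and 3057 CPM at day 3. All 3 day 15 libraries lay above all day 3 libraries, and this call held in every single omission from these groups. HSPA8 was at 3256, 3156 and 3322 CPM at day 15 and 3048, 2987 and 3074 CPM at day 3, without overlap (log2 fold 0.096, SE 0.0187, limma adjusted p = 0.00376).

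STIP1 was at 439, 426 and 471 CPM at day 15 in MDA-MB-231, on both sides of its controls and above all day 3 libraries (log2 fold 0.14, SE 0.0274, limma adjusted p = 0.00491 over day 3). HSPH1 was at 455, 452 and 466 CPM at day 15, above all day 3 libraries (log2 fold 0.11, SE 0.0234, limma adjusted p = 0.00817). HSPD1, at 619, 618 and 627 CPM at day 3 and above that in all day 15 libraries, also rose (log2 fold 0.13, SE 0.0255, limma adjusted p = 0.00495). So did HSPA9, the mitochondrial Hsp70, at 637, 608 and 674 CPM at day 15 and 589, 589 and 606 CPM at day 3 (log2 fold 0.10, SE 0.0282, limma adjusted p = 0.0342). HSPA5 fell (log2 fold -0.070, SE 0.0191, limma adjusted p = 0.0319), each day 15 library being below each day 3 library. The groups did not overlap for 13 of 34 members, against 25.1% of all genes.

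The number of these calls was 2 without day 3 replicate 1 (HSP90AA1 and HSPA8) or replicate 2 (HSP90AA1 and STIP1), against 0.867% and 0.999% of all genes, and 10 without day 15 replicate 2, against 11.6% of all genes. HSPA9 was at a log2 fold of 0.066 without day 15 replicate 3. Of the 7 calls these were lost: without day 3 replicate 1, HSPD1, HSPA9, HSPA5, STIP1 and HSPH1 (limma adjusted p = 0.0536 to 0.159); without day 3 replicate 2, HSPD1, HSPA9, HSPA5, HSPA8 and HSPH1 (limma adjusted p = 0.0503 to 0.166); without day 3 replicate 3, HSPA5 (limma adjusted p = 0.0968); without day 15 replicate 1, HSPA9 and HSPA5 (limma adjusted p = 0.0964 to 0.148); without day 15 replicate 3, HSPA9 (limma adjusted p = 0.146). With libraries scaled to equal medians HSPA5 was not called either (0.179).

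In T47D at day 3, none of the 34 members passed the test. The number called was 0 of 34 by limma, against 1.88% of all 14768 genes (1.16% higher and 0.718% lower), and 5 members had an unadjusted p under 0.05, against 10.1% of all genes. When the 2 groups were fitted without the day 15 libraries, 4 members were called: DNAJA1 rose, and CANX, HSPD1 and SEL1L fell, against 6.24% of all genes called. The median log2 fold was -0.025 over the heat shock members and -0.037 over the ER members, against -0.0026 over all genes. DNAJA1, a J-domain partner of the constitutive Hsp70, was at 355, 356 and 355 CPM at day 3 and 318, 326 and 315 CPM in controls. These groups were far apart for their spread within each group, yet in the fit of all 9 libraries, which pools the spread of day 15, DNAJA1 did not pass (log2 fold 0.15, SE 0.0507, limma adjusted p = 0.242). SEL1L was at 295, 299 and 289.6 CPM at day 3 and 319.8, 321 and 309 CPM in controls (log2 fold -0.10, SE 0.0319, limma adjusted p = 0.176), and CANX, the membrane-bound lectin chaperone, at 1523, 1532 and 1531 CPM at day 3 and 1680.1, 1662 and 1605 CPM in controls (log2 fold -0.11, SE 0.0363, limma adjusted p = 0.225). Both had every day 3 library below every control. The groups did not overlap for 14 of 34 members, against 21.9% of all genes.

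The cytosolic chaperones of T47D gave no call at day 3 and small values. HSPA8 was at 4460.3, 4491 and 4548 CPM at day 3 and 4619.9, 4709.8 and 4504 CPM in controls (log2 fold -0.035, SE 0.0288, 95% interval -0.097 to 0.027). HSP90AA1 had a log2 fold of -0.048, DNAJB1 of -0.042, HSPA1A of -0.040, HSPA1B of 0.019, HSPH1 of -0.025, STIP1 of -0.00069 and HSF1 of 0.0090. HSPA5 was at 905, 925 and 915 CPM at day 3 and 932, 943 and 922 CPM in controls (log2 fold -0.027, SE 0.0266, 95% interval -0.084 to 0.030), with overlapping groups. HSP90B1 and CALR had log2 folds of 0.0027 and 0.019.

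At day 15 in T47D, DNAJB9 and HERPUD1 were below control, and no member was called higher. Of the heat shock members 0 rose, 0 fell and 17 were not called, and of the ER members 0 rose, 2 fell and 15 were not called. That is 2 of 34 members, against 11.2% of all genes called (5% higher and 6.23% lower). The median log2 fold was -0.035 over the heat shock members and -0.041 over the ER members, against 0.0028 over all genes. DNAJB9 was at 31.9, 32.8 and 31.5 CPM in controls, 29.8, 31.3 and 28.5 CPM at day 3 and 26.8, 26.6 and 27.2 CPM at day 15. All day 15 libraries lay below all others, with day 3 between, and DNAJB9 fell at day 15 (log2 fold -0.26, SE 0.0484, limma adjusted p = 0.00318, a change of -16.2%). This call held in each of the 12 other settings tried, and without day 15 replicate 2 it was much the same (log2 fold -0.25, SE 0.0513, adjusted p = 0.000462).

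HERPUD1 was at 35.9, 33.8 and 35.3 CPM in T47D controls, 32.8, 31.9 and 31.1 CPM at day 3 and 29.9, 32.4 and 31.2 CPM at day 15. All induced libraries lay below all controls, and HERPUD1 fell at day 15 (log2 fold -0.17, SE 0.0479, limma adjusted p = 0.0373). Leaving out day 15 replicate 2 kept the call (log2 fold -0.20, SE 0.0490, adjusted p = 0.00329). In the other omissions it was lost: without control replicate 1 (limma adjusted p = 0.139); without control replicate 2 (limma adjusted p = 0.0627); without control replicate 3 (limma adjusted p = 0.108); without day 15 replicate 1 (limma adjusted p = 0.157); without day 15 replicate 3 (limma adjusted p = 0.0501).

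**Figure D4:**
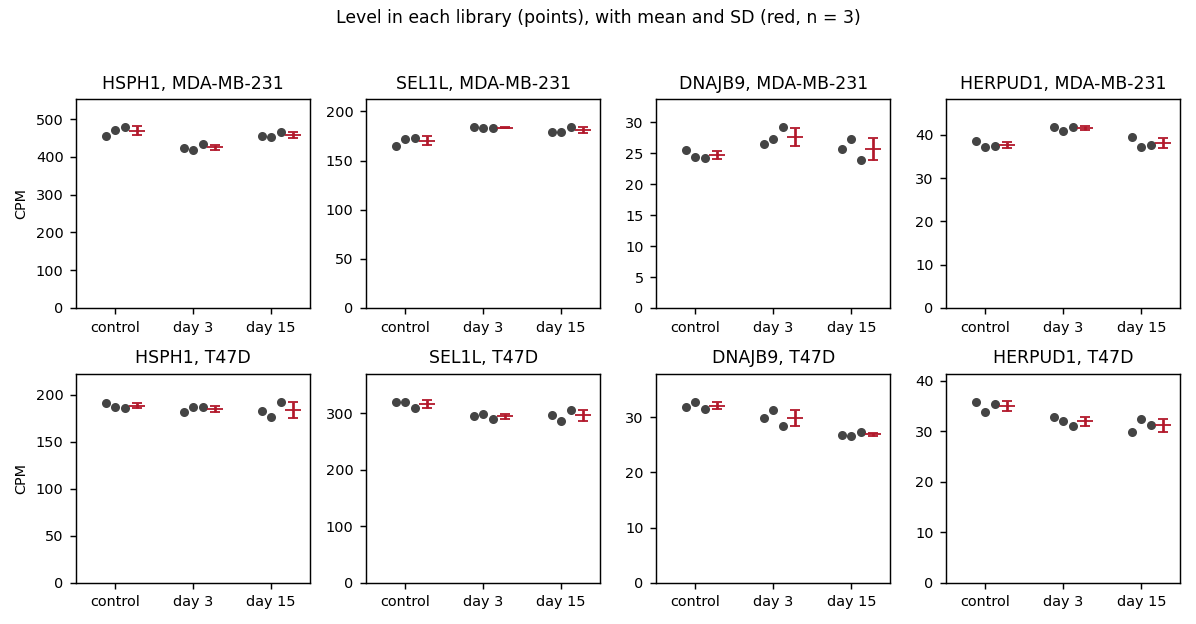
Level in CPM (axis from 0) of HSPH1, SEL1L, DNAJB9 and HERPUD1 in control, day 3 and day 15 libraries of MDA-MB-231 (upper row) and T47D (lower row), with black points for libraries and red bars for mean and SD (n = 3). HSPH1 dips at day 3 in MDA-MB-231, and DNAJB9 and HERPUD1 are above control at day 3 in MDA-MB-231 and below it in T47D.

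The T47D picture at day 15 rested heavily on day 15 replicate 2. Without it 12 members were called, 6 higher and 6 lower, and 3705 genes of the table, 25.1% (11.3% higher and 13.7% lower), against 1659 with it. MANF, a secreted protein of ER stress, was at 84.2, 69.6 and 87.3 CPM at day 15 and 75.3, 76.8 and 72.1 CPM in controls. Day 15 replicate 2 was the lowest of these values, and the other 2 day 15 libraries lay above all controls. With all libraries its groups overlapped (log2 fold 0.099, SE 0.0691, limma adjusted p = 0.432), and without replicate 2 it rose (log2 fold 0.20, SE 0.0382, adjusted p = 0.000198). DNAJB11 was at 297, 249 and 292 CPM at day 15 and 263, 269 and 258 CPM in controls, not called with all libraries (log2 fold 0.081, SE 0.0535, limma adjusted p = 0.4) and higher without replicate 2 (log2 fold 0.16, SE 0.0278, adjusted p = 4.97e-05). STIP1 was at 709.9, 654 and 714 CPM at day 15 and 637, 659 and 641 CPM in controls, with log2 fold 0.10, SE 0.0348, limma adjusted p = 0.0858 in all libraries and log2 fold 0.14, SE 0.0238 (adjusted p = 3.79e-05) without replicate 2. CALR (log2 fold 0.094, SE 0.0219), DNAJA1 (log2 fold 0.11, SE 0.0259) and HSP90AA1 (log2 fold 0.058, SE 0.0194) were the other 3 called higher without it. In each of these 6 genes replicate 2 was the lowest day 15 library. They were picked as called higher only without it, so its low place in them is no separate result.

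On the low side without T47D day 15 replicate 2 were HSPE1 (log2 fold -0.38, SE 0.0644, adjusted p = 3.72e-05), P4HB, a disulfide isomerase (log2 fold -0.13, SE 0.0240, adjusted p = 8.35e-05), HSF1 (log2 fold -0.13, SE 0.0420), CANX (log2 fold -0.071, SE 0.0215), DNAJB9 and HERPUD1. HSPE1 was at 24.8, 34.6 and 26.2 CPM at day 15 and 34.3, 31.3 and 34.1 CPM in controls, so replicate 2 lay above all controls and the other 2 day 15 libraries below them. With replicate 2 kept and replicate 3 left out, 6 members were called and all were lower: CANX, DNAJB9, HSPA4, HSPA9, HSPD1 and SEL1L, against 12.3% of all genes (6.89% lower). DNAJB9 and CANX were the 2 members called lower in both of these omissions. The groups of the full comparison did not overlap for 9 of 34 members, against 26.3% of all genes.

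The main chaperones of each compartment stayed without a call in T47D at day 15 with all libraries. HSPA8 was at 4708, 4445 and 4745 CPM at day 15 and 4619.9, 4709.8 and 4504 CPM in controls (log2 fold 0.0063, SE 0.0288, 95% interval -0.056 to 0.068). HSPA5 was at 924, 907 and 946 CPM at day 15 and 932, 943 and 922 CPM in controls (log2 fold -0.011, SE 0.0266, 95% interval -0.068 to 0.047). Without day 15 replicate 2 their log2 folds were 0.036 and 0.0038, and neither was called. The log2 fold of HSP90B1 was -0.0041, of CALR 0.055, of HSP90AA1 0.0013, of DNAJB1 -0.028, of HSF1 -0.038, of HSPA1A -0.068 and of HSPA1B -0.033. Without day 15 replicate 2 HSP90B1 was at 0.052, on the other side of control, DNAJB1 at -0.048, HSPA1A at -0.045 and HSPA1B at -0.037, none of them called. HSPB1, HSPD1, HSPA9 and HSPH1 were at -0.032, -0.11, -0.078 and -0.035 with all libraries. Without replicate 2 they were at -0.087, -0.056, -0.029 and -0.0037, and none was called in either fit.

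Between day 15 and day 3 in T47D, 0 of 34 members were called by limma, against 5.58% of all genes (2.23% higher and 3.35% lower), and 3 had an unadjusted p under 0.05, against 18.0% of all genes. The median log2 fold was -0.028 over the heat shock members and 0.00086 over the ER members, against 0.0021 over all genes. DNAJB9 had the lowest adjusted p of the 34 (log2 fold -0.15, SE 0.0484, limma adjusted p = 0.0981), with day 15 below day 3 in every library. Without day 15 replicate 2, 10 members were called, against 17.6% of all genes (7.74% higher and 9.89% lower). CALR, DNAJB11, HSP90AA1, HSPA8, MANF and STIP1 rose, and DNAJB9, HSF1, HSPE1 and P4HB fell, with STIP1 at log2 fold 0.14, SE 0.0238 and P4HB at log2 fold -0.075, SE 0.0240. HSP90AA1, called between the same times in MDA-MB-231, was at 3998, 3616 and 4144 CPM at day 15 in T47D and 3755, 3810.4 and 3778 CPM at day 3, with log2 fold 0.049, SE 0.0402, limma adjusted p = 0.595 in all libraries and log2 fold 0.11, SE 0.0194 (adjusted p = 0.000162) without replicate 2. The groups did not overlap for 2 of 34 members, against 22.4% of all genes.

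The remaining 11 members had no call over control in any fit of all 9 libraries of a line, and are given by their log2 folds. HSPA4, an Hsp110 exchange factor like HSPH1, was at -0.0055 at day 3 and 0.033 at day 15 in MDA-MB-231, and -0.024 at day 3 and -0.089 at day 15 in T47D. HSP90AB1, the constitutive cytosolic Hsp90, was at -0.040 at day 3 and -0.028 at day 15 in MDA-MB-231, and -0.041 at day 3 and -0.049 at day 15 in T47D. BAG3 was at -0.036 at day 3 and -0.041 at day 15 in MDA-MB-231, and -0.025 at day 3 and -0.035 at day 15 in T47D, and DNAJB4 at -0.015 at day 3 and 0.088 at day 15 in MDA-MB-231, and 0.069 at day 3 and 0.055 at day 15 in T47D. The signs of these 4 cytosolic genes were mixed and their values small. Without T47D day 15 replicate 2 their day 15 values in T47D were -0.039 for HSPA4, -0.026 for HSP90AB1, -0.046 for BAG3 and 0.033 for DNAJB4, none of them called.

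In the ER, HYOU1, the large Hsp70-like exchange factor for BiP, was at -0.033 at day 3 and -0.039 at day 15 in MDA-MB-231, and -0.021 at day 3 and 0.027 at day 15 in T47D. DNAJC3, the BiP co-chaperone p58IPK, was at 0.045 at day 3 and -0.028 at day 15 in MDA-MB-231, and -0.070 at day 3 and -0.069 at day 15 in T47D, and SDF2L1 at 0.072 at day 3 and -0.039 at day 15 in MDA-MB-231, and 0.027 at day 3 and 0.018 at day 15 in T47D. PDIA3, the disulfide isomerase that works with calreticulin and calnexin, was at -0.0068 at day 3 and 0.016 at day 15 in MDA-MB-231, and -0.054 at day 3 and -0.055 at day 15 in T47D. The isomerase PDIA4 was at 0.0028 at day 3 and -0.050 at day 15 in MDA-MB-231, and 0.029 at day 3 and 0.068 at day 15 in T47D, and PDIA6 at 0.047 at day 3 and 0.036 at day 15 in MDA-MB-231, and -0.052 at day 3 and -0.041 at day 15 in T47D. CRELD2 was at 0.068 at day 3 and 0.064 at day 15 in MDA-MB-231, and -0.037 at day 3 and -0.091 at day 15 in T47D. None of these 7 passed the test in either line with all libraries, nor at day 15 in T47D without replicate 2. There the log2 fold turned to -0.11 for SDF2L1 and 0.0081 for PDIA3, and was 0.020 for HYOU1, -0.053 for DNAJC3, 0.077 for PDIA4, -0.041 for PDIA6 and -0.089 for CRELD2.

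Other genes of the same pathways, listed beside the members, gave no call by limma at day 3 in either line, over 8 lists of 14 to 28 measured genes (2 to 4 a list at an unadjusted p under 0.05 in MDA-MB-231 and 0 to 3 in T47D). At day 15 in MDA-MB-231, 8.2% of all genes were called (3.42% higher and 4.77% lower). Of 25 other Hsp70, J-domain and small heat shock genes 1 rose and 3 fell there. The 3 were HSPB8, a small heat shock protein that works with BAG3 (10.1 ± 0.919 CPM at day 15 against 12.4 ± 0.591 CPM in controls, log2 fold -0.30, SE 0.0729, limma adjusted p = 0.0102), the J-domain gene DNAJB2 (log2 fold -0.21, SE 0.0579, limma adjusted p = 0.0234) and BAG6 (log2 fold -0.12, SE 0.0252, limma adjusted p = 0.00465). Of 14 Hsp90 co-chaperones 1 rose, PTGES3, which encodes p23 (log2 fold 0.074, SE 0.0211, limma adjusted p = 0.0285). Of 14 mitochondrial chaperones and proteases 1 rose, CLPB (log2 fold 0.14, SE 0.0374, limma adjusted p = 0.0227). Of 14 sensors and factors of the unfolded protein response, PPP1R15A (GADD34) rose (log2 fold 0.14, SE 0.0393, limma adjusted p = 0.0345) and WFS1, an ER membrane protein, fell (log2 fold -0.25, SE 0.0506, limma adjusted p = 0.00251). Of 20 genes of ER-associated degradation UBE2G2 rose and NPLOC4 fell, of 16 translocon genes SEC63 rose, and 0 of 28 other ER folding genes and 0 of 15 TRiC and prefoldin genes were called (5 and 0 at an unadjusted p under 0.05, and up to 3 higher and 1 lower of the 28 in single omissions). BAG6 and WFS1 held in all 6 single omissions, and the others named were lost in some: without control replicate 1, HSPB8, DNAJB2, PTGES3, PPP1R15A, NPLOC4 and SEC63 (limma adjusted p = 0.0511 to 0.167); without control replicate 2, all of them (limma adjusted p = 0.0534 to 0.236); without control replicate 3, CLPB and PPP1R15A (limma adjusted p = 0.0879 to 0.103); without day 15 replicate 1, PTGES3, CLPB, PPP1R15A, UBE2G2, NPLOC4 and SEC63 (limma adjusted p = 0.0529 to 0.16); without day 15 replicate 2, PTGES3 (limma adjusted p = 0.0812); without day 15 replicate 3, HSPB8, DNAJB2, PPP1R15A, UBE2G2, NPLOC4 and SEC63 (limma adjusted p = 0.0652 to 0.17). The log2 fold of PPP1R15A was 0.083 without day 15 replicate 3 and that of CLPB 0.087 without control replicate 3.

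At day 15 in T47D, CRYAB, HSPB8 and DNAJA4 fell and FKBP5 rose. Of 26 other Hsp70, J-domain and small heat shock genes 1 rose and 5 fell, against 11.2% of all genes called (5% higher and 6.23% lower). CRYAB, the small heat shock protein alphaB-crystallin, fell (4.53 ± 0.332 CPM at day 15 against 6.25 ± 0.0373 CPM in controls, log2 fold -0.47, SE 0.0875, limma adjusted p = 0.00298). HSPB8 fell (39.9 ± 1.14 CPM at day 15 against 54.6 ± 2.58 CPM in controls, log2 fold -0.45, SE 0.0441, limma adjusted p = 9.78e-06), and so did the J-domain gene DNAJA4 (39.7 ± 0.505 CPM at day 15 against 52.3 ± 1.11 CPM in controls, log2 fold -0.40, SE 0.0388, limma adjusted p = 1.05e-05). These 3 falls held in all 12 other settings tried, those without day 15 replicate 2 included. FKBP5, an Hsp90 co-chaperone raised by steroid receptors, rose (430.5 ± 16.9 CPM at day 15 against 358 ± 6.56 CPM in controls, log2 fold 0.27, SE 0.0326, limma adjusted p = 8.88e-05), while FNIP2 and FNIP1 fell, as 1 up and 2 down of 14 co-chaperones. Of 14 mitochondrial genes LONP1 (log2 fold -0.21, SE 0.0450, limma adjusted p = 0.00855), AFG3L2 (log2 fold -0.17, SE 0.0357, limma adjusted p = 0.00697) and CLPX (log2 fold -0.14, SE 0.0412, limma adjusted p = 0.0457) fell, all proteases or their partners.

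Of the stress sensors and the other ER genes some were called at day 15 in T47D, to be read against the same 11.2%. Of 14 sensors and factors of the unfolded protein response 1 fell, DDIT3, the factor CHOP (log2 fold -0.47, SE 0.0629, limma adjusted p = 0.000205). Of 28 other ER folding genes 3 fell: KDELR2, a retrieval receptor for ER chaperones (log2 fold -0.13, SE 0.0293, limma adjusted p = 0.0083), TMX3 (log2 fold -0.14, SE 0.0418, limma adjusted p = 0.0484) and UGGT1, the glycoprotein folding sensor (log2 fold -0.12, SE 0.0340, limma adjusted p = 0.0317). Of 16 translocon genes SSR2 rose and SEC11A fell, and 0 of 20 genes of ER-associated degradation and 0 of 15 TRiC and prefoldin genes were called (3 and 2 at an unadjusted p under 0.05). DDIT3, FKBP5, LONP1 and AFG3L2 held in all 12 other settings and KDELR2 in all 6 omissions, and the others were lost in some: without control replicate 1, FNIP2, FNIP1, CLPX, TMX3, UGGT1 and SSR2 (limma adjusted p = 0.0681 to 0.2); without control replicate 2, FNIP1, CLPX, TMX3, UGGT1, SEC11A and SSR2 (limma adjusted p = 0.0569 to 0.154); without control replicate 3, FNIP2, FNIP1, CLPX and UGGT1 (limma adjusted p = 0.0624 to 0.0937); without day 15 replicate 1, FNIP1, CLPX, TMX3, UGGT1 and SSR2 (limma adjusted p = 0.0763 to 0.189). Without day 15 replicate 2, where 25.1% of all genes were called, these named genes were all called in the same direction and the counts were as large or larger. They were then 3 higher and 7 lower of the 26 Hsp70 and related genes, 6 and 3 of the co-chaperones, 0 and 3 of the mitochondrial genes, and 1 and 4 of the sensors and factors. They were 0 higher and 6 lower of the ER folding genes, 2 and 4 of the translocon genes, 2 and 4 of the ER-associated degradation genes, and 5 and 0 of the TRiC and prefoldin genes.

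Between day 15 and day 3 these further lists gave the following calls, against 5.33% of all genes in MDA-MB-231 and 5.58% in T47D. In MDA-MB-231, of the other Hsp70, J-domain and small heat shock genes 1 rose, DNAJC2 (log2 fold 0.14, SE 0.0390, limma adjusted p = 0.0302), and 3 fell, among them HSPB8 (log2 fold -0.30, SE 0.0729, limma adjusted p = 0.0176) and DNAJB2 (log2 fold -0.28, SE 0.0579, limma adjusted p = 0.00615). The Hsp90 co-chaperones CHORDC1 (log2 fold 0.16, SE 0.0349, limma adjusted p = 0.0105) and PTGES3 (log2 fold 0.071, SE 0.0211, limma adjusted p = 0.0473) rose, 2 of 14, and so did CCT5 (log2 fold 0.093, SE 0.0212, limma adjusted p = 0.0116) and TCP1 (log2 fold 0.081, SE 0.0236, limma adjusted p = 0.0436), subunits of the chaperonin TRiC, 2 of 15. Of the sensors and factors of the unfolded protein response ATF4 rose, and WFS1 and MBTPS2, the site-2 protease that releases ATF6, fell, and of the ER-associated degradation genes EDEM1 fell. Of the mitochondrial, other ER folding and translocon lists 0 were called by limma (0, 7 and 5 at an unadjusted p under 0.05). In T47D, CRYAB (log2 fold -0.40, SE 0.0875, limma adjusted p = 0.0157), DNAJA4 (log2 fold -0.38, SE 0.0388, limma adjusted p = 2.59e-05) and HSPB8 (log2 fold -0.36, SE 0.0441, limma adjusted p = 0.000151) were 3 of 5 that fell in the first list, with 1 that rose. FKBP5 rose (log2 fold 0.19, SE 0.0326, limma adjusted p = 0.00311), CLPX and GRPEL1 of the mitochondrial list fell, DDIT3 fell (log2 fold -0.37, SE 0.0629, limma adjusted p = 0.00262), QSOX1, a disulfide-forming oxidase, rose, and SPCS3 and SSR2 of the translocon list rose. The TRiC and ER-associated degradation lists had 0 calls by limma (1 each at an unadjusted p under 0.05, and 1 higher and 3 lower without day 15 replicate 2). Without that library the T47D genes named here were called in the same direction, with QSOX1 at a log2 fold of 0.15, against 0.23 with it. In single omissions the falls in the first list numbered 3 to 7 in T47D and 0 to 5 in MDA-MB-231, the rises among co-chaperones 1 to 5 in T47D and 0 to 3 in MDA-MB-231, and the TRiC rises 0 to 4 in MDA-MB-231.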

How the data were processed

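Total RNA of 18 libraries was sequenced on an Illumina instrument, per the labels. The submitters' processing notes name STAR, featureCounts and limma, without versions, and the build GRCh38.p13. The authors deposited 1 table of log2 CPM per line, the unit being read from the values. All values gave whole reads within 0.1 once a prior of 3 reads, scaled to library size, was taken off, so depth is known. The CPM given include that prior, which is 0.0688 CPM in MDA-MB-231 and 0.0661 CPM in T47D. Libraries held at least 37012500 reads. Each line was fitted with limma 3.58.1 in R 4.3.3 (trend and robust moderation, statmod 1.5.0) over its 9 libraries, Benjamini-Hochberg over all genes, called at adjusted p under 0.05. The fit was run on simulated data whose changes were larger than any member's and which had no outlying library. Calls at the sizes seen here were not tested by it. Deviations of same-numbered libraries had correlations of -0.031 to 0.28 in MDA-MB-231 and -0.41 to 0.073 in T47D. Between different numbers they were -0.26 to 0.19 and -0.27 to 0.39. This did not back pairing by number in T47D and did not settle it in MDA-MB-231. The fit used no pairing in either line. No libraries were duplicates. Members and lists were chosen with earlier results of these data known. Named are members called in a comparison, 11 of defining role, and up to 3 called genes per list by size of change. Alternatives were a filter on low genes, a pseudocount of 0.5 reads, equal medians, plain moderation, 2 groups only, a replicate block and single omissions from the 2 groups compared. The series text speaks of parental and Aza-resistant lines, and the sample labels were followed. Gene lengths came from GENCODE on GRCh38, as the union of the exons of all transcripts of a gene.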

Additional observations from a re-analysis of the deposited data

Results flagged for a closer look

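For 7 genes every induced library moved one way from its comparison group in T47D and every library the other way in MDA-MB-231. That was 6 of 34 members at day 3, 3 at day 15 and 1 for day 15 against day 3, against 2.91%, 3.45% and 2.16% of the 12666 genes in both tables. Each line was fitted on its own and the difference between the lines was not tested. Each value below is the T47D log2 fold minus the MDA-MB-231 log2 fold. At day 3 against control the value was -0.27 for HERPUD1 (T47D -0.13, MDA-MB-231 0.14), -0.27 for DNAJB9 (T47D -0.10, MDA-MB-231 0.16) and -0.21 for SEL1L (T47D -0.10, MDA-MB-231 0.11). It was -0.11 for DNAJC3, a luminal J-domain protein that inhibits eIF2alpha kinases (T47D -0.070, MDA-MB-231 0.045), and -0.099 for PDIA6, a disulfide isomerase (T47D -0.052, MDA-MB-231 0.047). For DNAJA1 at day 3 the value was 0.19 (T47D 0.15, MDA-MB-231 -0.035), and for day 15 against day 3 it was -0.18 (T47D -0.12, MDA-MB-231 0.059). That T47D value was -0.044 without day 15 replicate 2 (limma adjusted p = 0.26). At day 15 against control the value was -0.18 for SEL1L (T47D -0.095, MDA-MB-231 0.089), -0.077 for PDIA6 (T47D -0.041, MDA-MB-231 0.036) and 0.12 for PDIA4, another disulfide isomerase (T47D 0.068, MDA-MB-231 -0.050). Without T47D day 15 replicate 2 the T47D values were -0.073, -0.041 and 0.077. Of these single-line changes limma called SEL1L in MDA-MB-231 at day 3 and day 15, and none of the others.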

How the results depend on the processing

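Filtering genes to a mean log2 CPM of 1 or more and a pseudocount of 0.5 reads gave the same number of members called in all 6 comparisons. In the settings run no called member changed sign, nor did a list gene named over control, while of the members not called up to 9 of 34 did in an omission. Equal medians left 2 members, HSPH1 and STIP1, at day 3 in MDA-MB-231. Plain moderation, without trend and robust fitting, left 0 members in the MDA-MB-231 comparisons and 1 at day 15 in T47D, and called 63, 232 and 32 genes at day 3, day 15 and day 15 against day 3 in MDA-MB-231 and 549 for day 15 against day 3 in T47D. Fitting only the 2 groups compared gave 7 and 3 members at day 3 and day 15 in MDA-MB-231 and 4 and 1 in T47D, with 476 and 776 genes in MDA-MB-231, 921 and 996 in T47D, and 463 for day 15 against day 3 in T47D. The check of pairing did not back a replicate block in T47D and did not settle it in MDA-MB-231. With this block MDA-MB-231 had 8, 11 and 11 members and 637, 2273 and 1788 genes. T47D had 1 member at day 15, and 511 genes for day 15 against day 3. Omitting each library of the 2 groups compared in turn gave 1 to 2 members (119 to 259 genes) at day 3, 1 to 10 (457 to 1897) at day 15 and 2 to 10 (124 to 1664) for day 15 against day 3 in MDA-MB-231. In T47D it gave 0 members (182 to 214 genes), 1 to 12 (930 to 3705) and 0 to 10 (403 to 2604). The group outside a comparison also sets the pooled spread and kept all its libraries. T47D day 15 replicate 2 therefore stayed in for day 3 against control. An omission leaves 2 libraries in a group, so fewer calls follow in part from fewer samples, and for the rest the cause was not tested. What depth limits was not tested. The median SE of the members' log2 folds was 0.027 in MDA-MB-231 and 0.040 in T47D, and the largest, 0.13 and 0.12, was that of HSPE1.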
